A study of Arabidopsis thaliana with 24 samples.

Results

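A set of 10 genes of plastid-to-nucleus signalling in Arabidopsis thaliana was taken by gene identifier from the 24497 genes of the deposited table. The 10 genes are GUN1 (AT2G31400), GLK1 (AT2G20570), GLK2 (AT5G44190), ABI4 (AT2G40220), HY5 (AT5G11260), EX1 (AT4G33630), EX2 (AT1G27510), STN7 (AT1G68830), SAL1 (AT5G63980) and PTM (AT5G35210). All 10 were in the table, and 8 passed the filter on low counts and could be tested. GLK1 and ABI4 did not pass it.

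Poly(A) RNA of root tips about 0.5 cm long was sequenced, and the title of the study names the relationship between GUN1 and NAC103, a NAC transcription factor, under disrupted plastid translation as its question. Seedlings of about 5 days on Murashige and Skoog medium with sucrose were moved to medium with spectinomycin at 10 mg/L, an antibiotic that blocks plastid ribosomes, or to medium without it. Sources differ on the exposure, with 16 h in one (the treatment protocol) and 24 h in another (the design text). The 4 genotypes were Col, called WT, the mutants gun1-101 and nac103-11, and NAC103-OX, which carries a 35S:NAC103-GFP transgene under a viral promoter that is active in most plant cells. Each of the 8 groups of genotype and medium held 3 libraries labelled as biological replicates, 24 in all. The kind of lesion in each mutant and the number of transgenic lines are not given in the sources used here. The batch label has 1 value per group, so batch and group cannot be told apart.

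Plastids depend on proteins encoded in the nucleus, and signals from the plastid adjust the expression of those genes to the state of the organelle, which is called retrograde signalling. GUN1, a pentatricopeptide-repeat protein of the plastid, is a central node of this pathway: in gun mutants, nuclear genes of photosynthesis stay expressed when plastid biogenesis is blocked. Other branches run through singlet oxygen with EX1 and EX2, through the nucleotide PAP, which SAL1 degrades, and through transcription factors such as GLK1, GLK2, ABI4 and HY5. Root tips hold non-green plastids, whereas most of these genes were first described in green tissue.

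Libraries held 13012576 to 17411872 counts. Among the WT control libraries, replicate 2 differed most: its counts gave a chi-square of 8.64 and 8.72, per degree of freedom, against replicates 1 and 3, which gave 1.79 against each other. Its summed level of 8 leaf and shoot markers was 207.3 transcripts-per-million (TPM, the deposited abundance corrected for length), against 100.3 and 102.3 TPM in the others. Some calls and counts of called genes are given with and without this library. List medians, group means, r values and most fold changes are given only with it. Markers of the root cap, stem cell niche, endodermis, root hair, xylem and phloem were detected in every group, at differing levels. On control medium root cap markers summed to 8.15 to 9.81 TPM in gun1-101 and 10.99 to 18.27 TPM in WT. Sums for the stem cell niche (28.97 to 33.62 against 39.47 to 40.68 TPM), root hair and endodermis were also lower. Those for xylem and phloem overlapped WT. WT control replicate 2 was lowest of its group in root cap (11.0 TPM) and root hair (187.8 TPM), and highest in phloem (283.3 TPM). As the libraries are bulk tissue, fewer cells of a type and less RNA per cell cannot be told apart. NAC103, the other altered gene, lay at 0.641 to 0.917 counts-per-million (CPM) in WT and at 16.6 to 17.9 CPM in NAC103-OX on control medium. In nac103-11 it lay at 0.533 to 0.777 CPM on control medium and at 0 to 0.129 CPM on spectinomycin. On spectinomycin NAC103 had 9, 9 and 11 counts in WT and 2, 0 and 2 in nac103-11, so a fold change there rests on few counts. Its transcript was lower than in WT on spectinomycin (log2 fold change -2.72 ± 0.53 SE, adjusted p = 9.41e-05, edgeR quasi-likelihood; ± after a log2 value stands for the SE throughout), and the difference on control medium did not pass (-0.31 ± 0.33, adjusted p = 0.515).

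The sequences to which the GUN1 and GLK results refer are given first. GUN1 lies on chromosome 2 at 13386954 to 13390854, minus strand, of TAIR10.1, and RefSeq annotates 2 transcript models of 4 exons. They share exons 2 and 3 and the start of the coding sequence, and differ in where exon 4 begins. The lines below join the last 30 bases of exon 3, in lower case, to the first 61 coding bases of exon 4, in capitals, where the models part. In the longer model these 61 bases are all of the coding sequence in exon 4 and end in a stop codon.
GUN1 shorter model: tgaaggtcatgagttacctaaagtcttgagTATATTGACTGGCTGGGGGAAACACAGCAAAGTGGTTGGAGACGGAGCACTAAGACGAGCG
GUN1 longer model: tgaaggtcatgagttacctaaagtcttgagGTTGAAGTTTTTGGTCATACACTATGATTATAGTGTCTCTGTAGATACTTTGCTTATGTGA
Counting the stop codon, the shorter model reads 919 codons and the longer model 840. GLK1 and GLK2 are paralogues, and one was at the detection limit here while the other was expressed, so the 250 bases before each annotated start are shown. The GLK1 window is chr2:8855052-8855301 and the GLK2 window is chr5:17798012-17798261, both on the plus strand of TAIR10.1. Capitals mark TTGAC, the core of the W-box bound by WRKY factors, or its reverse complement GTCAA.
GLK1 promoter: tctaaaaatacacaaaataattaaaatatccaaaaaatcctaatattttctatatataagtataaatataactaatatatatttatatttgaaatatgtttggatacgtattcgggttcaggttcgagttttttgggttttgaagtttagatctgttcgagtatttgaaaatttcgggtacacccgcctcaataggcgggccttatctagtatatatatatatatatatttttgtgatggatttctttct
GLK2 promoter: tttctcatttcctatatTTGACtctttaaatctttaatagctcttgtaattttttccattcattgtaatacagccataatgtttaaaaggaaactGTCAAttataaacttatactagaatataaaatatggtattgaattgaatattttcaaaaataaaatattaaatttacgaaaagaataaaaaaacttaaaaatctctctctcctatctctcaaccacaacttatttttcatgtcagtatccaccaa
The GC content is 26.4% in the GLK1 window and 23.6% in the GLK2 window. TTGAC occurs on either strand in 5 of the 10 genes' windows (GUN1, GLK2, EX1, EX2 and STN7) and in 44.9% of the 27443 windows of all genes. The G-box CACGTG, which HY5 can bind, is in none of the 10 and in 6.49% of all. AGATTCT, a core motif of GARP factors, the family of the GLKs, is in none of the 10 and in 6.22% of all. CCAATC, a motif described beside GLK, is in 1 of the 10 (EX2) and in 10.2% of all. A match describes the letters only.

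The 10 genes sat at very different levels. On the TPM scale, which takes transcript length into account, HY5 had a median of 60.5 TPM over the 24 libraries, GUN1 60.4, EX2 43.0, PTM 36.1, EX1 29.7, SAL1 26.5, GLK2 22.2 and STN7 19.8. GLK1 had a median of 0.025 TPM and ABI4 of 0. Most genes varied little between groups: the highest group mean CPM was 2.69 times the lowest for SAL1 and 2.08 times for GUN1, then 1.46 for GLK2, 1.38 for HY5, 1.35 for STN7, 1.34 for EX2, 1.15 for EX1 and 1.11 for PTM. All 8 tested genes differed somewhere among the 8 groups, as did 81.6% of all 19567 genes tested.

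**Figure D1:**
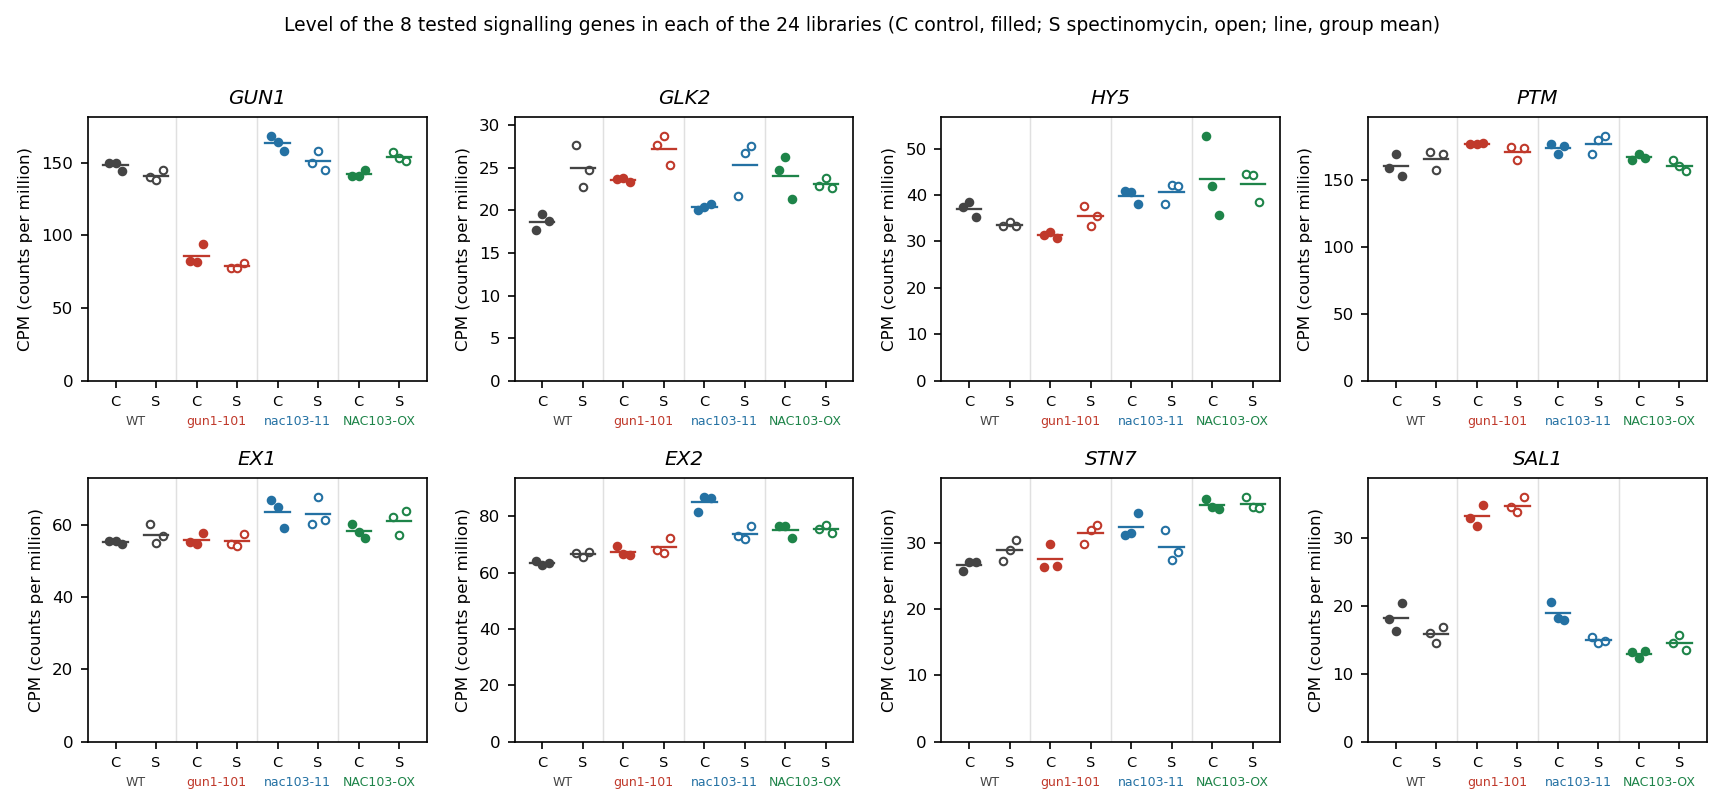
Level in CPM of the 8 tested genes in each library (points, 3 per group) with the group mean (line), filled on control medium and open on spectinomycin. GUN1 lies at 77.3 to 93.8 CPM in the gun1-101 libraries and at 138 to 168 CPM in all others, and SAL1 at 31.8 to 36.0 CPM against 12.4 to 20.6 CPM.

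Called genes are those with a Benjamini-Hochberg adjusted p under 0.05 in edgeR's quasi-likelihood test over all 19567 genes. On spectinomycin, GLK2 rose and SAL1 fell in WT, where 40.6% of all genes were called. In nac103-11, GLK2 rose and GUN1, EX2 and SAL1 fell, with 44.8% of all genes called. In the gun1-101 response none of the 8 was called by the main edgeR fit (24 libraries in 8 groups, TMM scaling) or by DESeq2. That edgeR fit called 11.2% of all genes (3.22% up and 7.96% down), and 3 of the 8 (GUN1, GLK2 and STN7) had an unadjusted p under 0.05. With edgeR fitted to only the gun1-101 groups, GLK2 (adjusted p = 0.0292), HY5 (0.0458) and STN7 (0.0346) passed as higher on spectinomycin. The share of all genes called in that smaller fit is not given. None was called by either tool in the NAC103-OX response, with 5.06% of all genes called (2.24% up and 2.82% down), where 1 (GUN1) had an unadjusted p under 0.05.
On control medium, GLK2, SAL1 and PTM were higher and GUN1 and HY5 lower in gun1-101 than in WT (40.5% of all genes called). In nac103-11, GUN1, EX1, EX2, STN7 and PTM were higher (43.3%). In NAC103-OX, GLK2, HY5, EX2 and STN7 were higher and SAL1 lower (45.3%). On spectinomycin, SAL1 was higher and GUN1 lower in gun1-101 (57% of all genes called), HY5 and EX2 were higher in nac103-11 (26.6%), and HY5, EX2 and STN7 were higher in NAC103-OX (16.8%, of which 8.45% up and 8.32% down). These comparisons share the WT libraries.
The libraries of the groups compared did not overlap for 4 of the 8 genes in the WT response (45.8% of all genes), for 5 in gun1-101 (29.6%), for 4 in nac103-11 (54.2%) and for 3 in NAC103-OX (25.6%). Against WT on control medium this held for 6 of the 8 in gun1-101 (46% of all genes), 6 in nac103-11 (48.3%) and 5 in NAC103-OX (49.2%), and on spectinomycin for 2 (62.7%), 4 (39.8%) and 4 (33.4%).
The response itself differed from that of WT for EX2 in nac103-11 (11.8% of all genes called, 6.2% up and 5.56% down) and for GUN1, GLK2 and SAL1 in NAC103-OX (31.6%). For gun1-101 none of the 8 passed in the main edgeR fit (24.5%), where 2 (HY5 and SAL1) had an unadjusted p under 0.05, and DESeq2 called 1. The median size of the log2 change over the 8 genes was 0.0976 in the WT response, against 0.190 over all genes, and 0.191 for gun1-101 against WT on control medium, against 0.199.

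**Figure D2:**
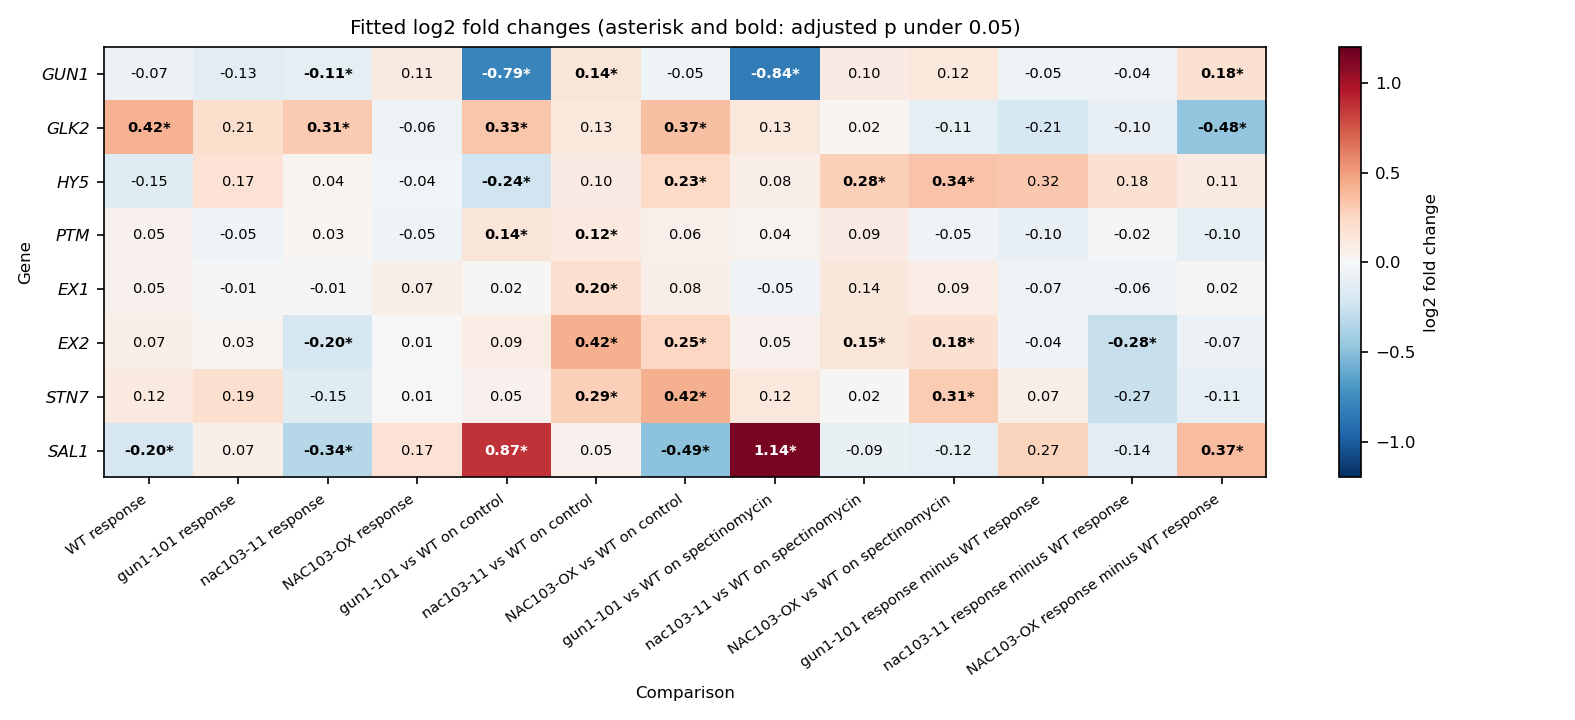
Fitted log2 fold changes of the 8 tested genes in the 13 comparisons, with the calls at an adjusted p under 0.05 marked. The widest departures from 0 are GUN1 at -0.79 and -0.84 and SAL1 at 0.87 and 1.14, in gun1-101 against WT on control medium and on spectinomycin.

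GUN1 transcript was reduced in gun1-101 and still detected. In WT it lay at 150, 150 and 144 CPM on control medium and at 140, 138 and 145 CPM on spectinomycin. In gun1-101 it lay at 82.0, 81.6 and 93.8 CPM on control medium and at 77.7, 77.3 and 80.8 CPM on spectinomycin. All 6 gun1-101 libraries were below all others. The log2 fold change against WT was -0.79 ± 0.05 on control medium (adjusted p = 5.33e-18) and -0.84 ± 0.05 on spectinomycin (adjusted p = 2.16e-19, edgeR quasi-likelihood).
In nac103-11 GUN1 lay at 168, 164 and 158 CPM on control medium and at 150, 158 and 145 CPM on spectinomycin. It was above WT on control medium by 0.14 ± 0.05 on the log2 scale (edgeR adjusted p = 0.0113), a call lost without WT control replicate 3 (0.0552) or nac103-11 control replicate 1 (0.0576). Its fall on spectinomycin (-0.11 ± 0.05, edgeR adjusted p = 0.0419) was lost without any of 4 libraries (0.0992 to 0.203), namely nac103-11 control replicates 1 and 2 and spectinomycin replicates 1 and 3. The former call was also lost with only its groups fitted (0.0552), and the latter with no filter on low counts (0.0618). Scaling to library totals without TMM gave 0.00404 for the former (adjusted p = 0.951) and 0.05 for the latter.
In NAC103-OX GUN1 lay at 141, 141 and 145 CPM on control medium and at 157, 153 and 151 CPM on spectinomycin. The NAC103-OX response differed from that of WT by 0.18 ± 0.06 (edgeR adjusted p = 0.0313), and this call was lost when any of 6 libraries was left out (0.0542 to 0.0745) and with library totals (0.12, adjusted p = 0.184). On spectinomycin GUN1 in NAC103-OX was above WT by 0.12 ± 0.05 (edgeR adjusted p = 0.0557), which passed with RLE size factors (0.038), with only its groups fitted (0.0385) and under DESeq2 (0.0403). In order of group means, nac103-11 on control medium stood highest at 163 CPM. The next 5 groups, at 141 to 154 CPM, overlapped each with its neighbour, and gun1-101 followed at 85.8 CPM on control medium and 78.6 CPM on spectinomycin.

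The reads counted for GUN1 in gun1-101 were assigned to its models in another proportion. A gene's count and TPM together give the mean length of the transcripts to which its reads were assigned, to about 1 base. This length was 3309 to 3310 bases in all 18 libraries of the other genotypes, next to the 3308 bases of the shorter model. In gun1-101 it was 3321, 3328 and 3325 bases on control medium and 3331, 3332 and 3322 bases on spectinomycin, towards the 3342 bases of the longer model. On the way from the shorter to the longer length, the 18 libraries lay at 2.94 to 5.88% and the 6 gun1-101 libraries at 38.2 to 70.6%. The values of the 18 libraries are within 5 bases of the shorter model, so their small shares are not resolved. The longer model has 158 further bases at the start of exon 4, while the shorter one has 76 further bases at its start and 48 at its end. These values are the authors' assignments to annotated models and are described without a test. The allele's sequence is not given in the sources used here, and its part in the assignment was not tested.

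**Figure D3:**
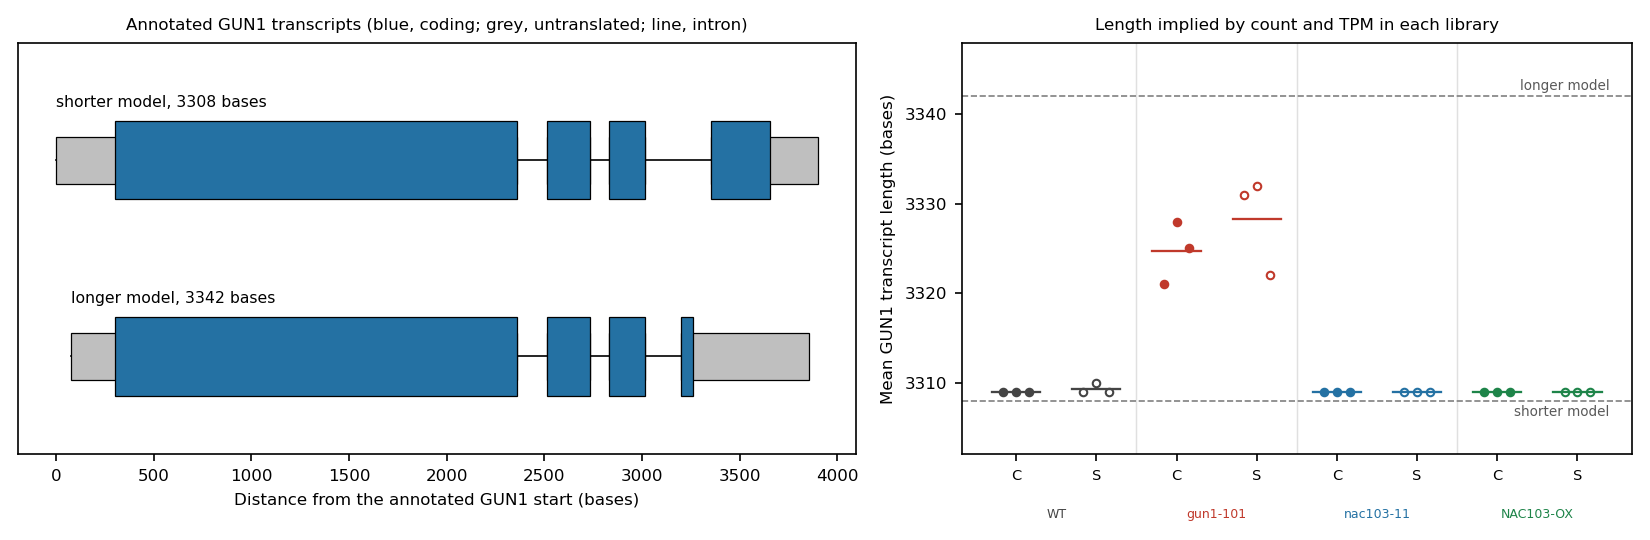
The 2 annotated GUN1 transcript models by distance in bases from the annotated start, and the mean GUN1 transcript length in bases in each library. The points of gun1-101 lie at 3321 to 3332 bases and those of all other genotypes at 3309 to 3310 bases, between the lengths of the models at 3308 and 3342.

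The 3 genes whose log2 CPM was most like that of GUN1 over the 24 libraries were HEI10 (Pearson r = 0.972), which encodes a meiotic crossover protein, MRD1 (0.965) and UBC11 (0.916), a ubiquitin-conjugating enzyme gene. Likeness was taken over 8350 candidate genes, and the points share libraries and groups. MRD1 lay at 51.1, 50.4 and 52.7 CPM in WT and at 2.48, 1.76 and 1.63 CPM in gun1-101 on control medium, and HEI10 at 29.9, 32.2 and 28.1 CPM and 4.96, 3.94 and 4.63 CPM. Both were lower in gun1-101 (log2 fold changes -4.69 ± 0.11 and -2.73 ± 0.11, edgeR adjusted p = 1.97e-33 and 8.46e-25). They overlap on opposite strands of chromosome 1, and as the strandedness of the counting is not given, their reads cannot be told apart. Within groups, the r of GUN1 was 0.356 with HEI10, -0.573 with MRD1 and -0.270 with UBC11.
Of the genes nearest to GUN1 on chromosome 2, 6 were tested. On control medium, where 40.5% of all genes were called, only AT2G31410, which is next to GUN1, differed in gun1-101 (-0.26 ± 0.07, edgeR adjusted p = 0.00299). On spectinomycin, where 57% of all genes were called, all 6 differed. BBX25, AT2G31410 and ADS2 were lower (-0.83, -0.29 and -0.22), and AT2G31390, AT2G31370 and GLX2-5 higher (0.45, 0.28 and 0.12). BBX25 encodes a B-box protein of light signalling, and ADS2 a fatty acid desaturase.

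The gene lists here and below were chosen with earlier results of these data known. Their counts describe the listed genes and are not independent evidence, also where they exceed the share over all genes. Proteins reported to bind GUN1 or to work beside it were followed as a list, of which 11 of 12 were tested. In WT on spectinomycin 4 rose and 3 fell (all genes: 20.1% up and 20.4% down), with a median log2 change of 0.06 against 0.03 over all genes. Those that fell included cpHSC70-2, a plastid chaperone (-0.23 ± 0.05, edgeR adjusted p = 7.18e-05), and HEMC, porphobilinogen deaminase of tetrapyrrole synthesis (-0.23 ± 0.05, adjusted p = 0.000309). In gun1-101 on spectinomycin 3 were higher and 3 lower than in WT (27.7% and 29.3% of all genes), the higher ones including cpHSC70-2 (0.74 ± 0.05, edgeR adjusted p = 2.95e-18) and HEMC (0.56 ± 0.05, adjusted p = 8.57e-13). MORF8, an RNA editing factor, was lower (-0.32 ± 0.04, adjusted p = 5.11e-08). In NAC103-OX on control medium 6 were higher and 1 lower (22.8% and 22.6% of all genes), with CLPC1, a plastid Clp chaperone, at 0.48 ± 0.05 (edgeR adjusted p = 6.4e-10).
Of the 5 tetrapyrrole genes known from gun mutants, 1 rose and 1 fell in WT on spectinomycin, which is near the share over all genes (20.1% and 20.4%), or 2 and 1 without WT control replicate 2. GUN5, the H subunit of magnesium chelatase, rose from a mean of 32.3 to 51.2 CPM (0.66 ± 0.06, edgeR adjusted p = 1.57e-13). FC1, a ferrochelatase, fell from 110 to 62.7 CPM (-0.82 ± 0.05, adjusted p = 1.26e-17). In gun1-101 FC1 lay at 168 CPM on control medium and 183 CPM on spectinomycin, above WT by 0.61 ± 0.05 and 1.55 ± 0.05 (edgeR adjusted p = 2.93e-14 and 2.91e-28). GUN5 on spectinomycin lay below WT there (-0.17 ± 0.05, adjusted p = 0.00689).

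PTM, a PHD protein of the plastid envelope that was proposed to release a nuclear fragment, had the narrowest range of group means. It lay at 159, 170 and 153 CPM in WT on control medium and at 171, 158 and 170 CPM on spectinomycin. In gun1-101 on control medium it lay at 177, 177 and 178 CPM, above all WT control libraries, by 0.14 ± 0.04 (edgeR adjusted p = 0.00952, or 0.0824 without WT control replicate 3 and 0.126 with only its groups fitted). In nac103-11 on control medium it was above WT by 0.12 ± 0.04 (edgeR adjusted p = 0.0309), a call lost without WT control replicate 1 or 3 or nac103-11 control replicate 1 or 3 (0.0834 to 0.187), with no filter on low counts (0.0519) and with only its groups fitted (0.145). Both differences turned to the other sign, -0.05 and -0.02, when counts were scaled to library totals without TMM. Its group means ran from 161 to 178 CPM, each overlapping its neighbour. The genes most like it were PLDGAMMA3 (r = 0.890), BGAL2 (0.858) and CHLM (0.822), a chlorophyll synthesis gene. Within groups, the r of PTM with them was 0.828, 0.768 and 0.693. In WT on control medium BGAL2 lay at 21.4, 32.8 and 20.2 CPM, highest in replicate 2, as was PTM.

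ABI4, an AP2-type transcription factor of abscisic acid and sugar signalling, was hardly detected. It had 4 counts over all 24 libraries, which came from gun1-101 libraries: 0, 1 and 1 on control medium and 0, 0 and 2 on spectinomycin. The other 6 groups had 0 counts, which allows up to 0.0577 to 0.0692 CPM (3 counts over the group, counting error only). No fold is given, since no group had more than 3 counts. Of 6 genes linked to ABI4, 5 were tested, of which 2 rose and 2 fell in WT on spectinomycin (all genes: 20.1% and 20.4%). AOX1A, the alternative oxidase gene that ABI4 was reported to repress, fell from 109 to 51.5 CPM (-1.08 ± 0.08, edgeR adjusted p = 1.99e-10). In gun1-101 on spectinomycin it lay at 103 CPM, above WT by 1.00 ± 0.09 (adjusted p = 5.18e-10). ABI5, a bZIP factor of abscisic acid signalling, was above WT in gun1-101 on control medium (0.86 ± 0.21, adjusted p = 0.00161).

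GLK1 and GLK2 are GARP transcription factors that drive chlorophyll synthesis and antenna genes. GLK1 had 21 counts in all, from 0 to 3 in a library, and at most 0.251 CPM. It was at 0 in WT on control medium and in NAC103-OX on spectinomycin, which allows up to 0.0627 and 0.0583 CPM.
GLK2 lay at 17.7, 19.6 and 18.8 CPM in WT on control medium and at 27.7, 22.7 and 24.7 CPM on spectinomycin. Every spectinomycin library was above every control library, and the rise of 0.42 ± 0.08 (edgeR adjusted p = 7.25e-05) stayed past the threshold in every setting tried. In nac103-11 GLK2 rose from 20.1, 20.4 and 20.8 CPM to 21.7, 26.7 and 27.6 CPM (0.31 ± 0.08, edgeR adjusted p = 0.00203), or by 0.47 with library totals.
In the other genotypes GLK2 was higher on control medium. It lay at 23.7, 23.8 and 23.3 CPM in gun1-101, 0.33 ± 0.09 above WT (edgeR adjusted p = 0.00203), and at 24.7, 26.3 and 21.3 CPM in NAC103-OX, 0.37 ± 0.09 above WT (adjusted p = 0.000437). No library of these groups overlapped WT. With library totals the difference in gun1-101 was 0.14 and not called (adjusted p = 0.163). On spectinomycin it lay at 27.7, 28.7 and 25.3 CPM in gun1-101 and at 22.9, 23.8 and 22.6 CPM in NAC103-OX, and the differences from WT of 0.13 ± 0.08 and -0.11 ± 0.08 did not pass (edgeR adjusted p = 0.181 and 0.377), although the former did without WT spectinomycin replicate 1 (0.0496). The NAC103-OX response was below that of WT by a log2 difference of -0.48 ± 0.12 (edgeR adjusted p = 0.00131). For gun1-101 the difference from the WT response was -0.21 ± 0.12 (adjusted p = 0.219). In order of means, WT and nac103-11 on control medium were lowest, at 18.7 and 20.4 CPM, and the other 6 groups, at 23.1 to 27.2 CPM, overlapped each with its neighbour.

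The 22 listed GLK targets, all tested, include antenna proteins and chlorophyll enzymes, and were chosen with earlier results of these data known. In WT on spectinomycin 18 rose and none fell (all genes: 20.1% up), with a median log2 change of 0.68 against 0.03 over all genes. PORB, a protochlorophyllide oxidoreductase, rose from 6.83 to 15.4 CPM (1.16 ± 0.11, edgeR adjusted p = 1.58e-12) and LHCB4.2, an antenna protein gene, from 18.1 to 34.2 CPM (0.91 ± 0.08, adjusted p = 5.06e-12). In nac103-11 16 rose and 2 fell (all genes: 21.4% and 23.4%), and in gun1-101 5 rose (3.22% up). In NAC103-OX edgeR called none, with a median of -0.10.
On control medium 18 were higher in gun1-101 than in WT (all genes: 24.7% up), with a median of 0.48, and 15 in NAC103-OX (22.8% up), with a median of 0.57. Against the WT response, 10 had a lower response in gun1-101 (all genes: 10.8% down) and 15 in NAC103-OX (15.1% down). Without WT control replicate 2, 21 rose in WT, and 21 and 17 were higher in gun1-101 and NAC103-OX on control medium. Without that library the count with a lower response was 18 in gun1-101, 17 in NAC103-OX and 14 in nac103-11, the last against 3 with it. With library totals in place of TMM, 13 were higher and 1 lower in gun1-101 on control medium. Here and for the other lists, shares of all genes called under changed settings are not given. The changed counts can therefore not be called particular to the listed genes.
The leaf and shoot markers moved with these genes. Their sum lay at 100.3 to 207.3 TPM in the WT control libraries and at 212.7 to 223.5 TPM in WT on spectinomycin. On control medium it was 198.6 to 210.9 TPM in gun1-101, 158.5 to 175.3 TPM in NAC103-OX and 115.8 to 130.9 TPM in nac103-11. Of the 8 markers, STM, STOMAGEN, SPCH and FAMA, regulators of the shoot meristem and of stomata, were at 0 in all control libraries, and the photosynthesis genes RBCS1A, CAB3, CA1 and RCA made up the sum there. CAB3 is also a listed GLK target. The part of leaf-type cells in these differences was not tested. The genes most like GLK2 were LHCA4 (r = 0.827), an antenna protein gene on the target list, GPAT6 (0.825) and RCA (0.807), rubisco activase. Within groups, the r of GLK2 with them was 0.300, 0.354 and 0.244. LHCA4 lay at 76.8, 111 and 73.9 CPM in WT on control medium, highest in replicate 2, and at 153, 140 and 136 CPM on spectinomycin.

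HY5, a bZIP factor of light signalling that acts in shoots and roots, lay at 37.4, 38.5 and 35.3 CPM in WT on control medium and at 33.2, 34.2 and 33.2 CPM on spectinomycin, and this difference did not pass (-0.15 ± 0.09, edgeR adjusted p = 0.19). In gun1-101 it lay at 31.4, 32.1 and 30.7 CPM on control medium and at 37.6, 33.3 and 35.4 CPM on spectinomycin. All 3 gun1-101 control libraries were below all WT control libraries (-0.24 ± 0.09, edgeR adjusted p = 0.0371), and leaving out any of 5 libraries ended this call (0.0645 to 0.125), while library totals gave -0.43. The gun1-101 response minus that of WT was 0.32 ± 0.13 (edgeR adjusted p = 0.0692), which passed under DESeq2 (0.0469) and when edgeR was fitted to these 4 groups alone (0.00731).
On spectinomycin HY5 lay at 38.1, 42.1 and 42.0 CPM in nac103-11, above WT by 0.28 ± 0.09 (edgeR adjusted p = 0.0137). That call was lost without nac103-11 spectinomycin replicate 2 (0.0591) or 3 (0.0575) and with library totals (0.0606). In NAC103-OX on spectinomycin it lay at 44.6, 44.2 and 38.4 CPM, above WT by 0.34 ± 0.09 (edgeR adjusted p = 0.00536). On control medium its NAC103-OX values of 52.6, 42.0 and 35.6 CPM spread widely. The rise there of 0.23 ± 0.09 (edgeR adjusted p = 0.0308) was 0.06 (0.519) without replicate 1, and the call was also lost without WT control replicate 1 (0.0645) or 3 (0.108) and with only its groups fitted (0.194).
Over the 8 groups, HY5 means ran from 43.4 CPM in NAC103-OX to 31.4 CPM in gun1-101, both on control medium, and among neighbours in this order only the lowest stood clear. ERD14 (r = 0.823), AIM1 (0.807) and GSNAP (0.794) were most like HY5, with r of 0.599, 0.551 and 0.571 within groups.
Of the light signalling partners, 16 of 17 were tested. In WT on spectinomycin 11 rose and none fell (median 0.17; all genes: 20.1% up), among them BBX25 (1.03 ± 0.12, edgeR adjusted p = 9.41e-10) and the phytochrome-interacting factor genes PIF4 (1.62 ± 0.22, adjusted p = 6.58e-08) and PIL5 (0.67 ± 0.11, adjusted p = 1.07e-06). In NAC103-OX on control medium 12 were higher and none lower (median 0.28; 22.8% up), among them BBX22 (0.54 ± 0.05) and the phytochrome gene PHYA (0.34 ± 0.05). In gun1-101 on spectinomycin 2 were higher and 8 lower than in WT (all genes: 27.7% and 29.3%). On control medium 2 were higher and 2 lower in gun1-101 (24.7% and 15.8%), or 1 and 8 with library totals in place of TMM, and 4 and 2 without WT control replicate 2.
HY5 targets, of which 10 of 12 were tested, were compared next. In nac103-11 on control medium 6 were lower and 1 higher (all genes: 20.1% and 23.2%), with a median of -0.60. TT4, chalcone synthase of flavonoid synthesis, lay at a mean of 47.5 CPM against 135 CPM in WT (-1.51 ± 0.08, edgeR adjusted p = 1.77e-15), and CHIL and FLS1 of the same pathway were lower (-1.78 ± 0.15 and -1.35 ± 0.13). On spectinomycin 6 were lower and none higher (all genes: 11.1% and 15.5%), with a median of -0.37 and TT4, CHIL and FLS1 at -0.80 ± 0.07, -0.67 ± 0.12 and -0.64 ± 0.11. The nac103-11 response was above that of WT for these 3 (0.71 ± 0.10, 1.11 ± 0.20 and 0.71 ± 0.17, edgeR adjusted p = 1.11e-05, 5.77e-05 and 0.00243). HY5 itself was not called in nac103-11 on control medium (0.10 ± 0.09, adjusted p = 0.379). In gun1-101 on control medium 5 were lower and none higher (median -0.20; all genes: 15.8% down and 24.7% up). In NAC103-OX 5 were higher and 1 lower (median 0.21; 22.8% and 22.6%), or 5 and 2 without WT control replicate 2. With library totals 8 were lower in gun1-101 on control medium.

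EX1 and EX2 are related plastid proteins through which singlet oxygen in the chloroplast alters nuclear expression. EX2 was higher in both lines with altered NAC103. It lay at 64.0, 62.7 and 63.3 CPM in WT on control medium, at 81.6, 86.7 and 86.5 CPM in nac103-11 and at 76.7, 76.4 and 72.2 CPM in NAC103-OX, so that all 6 libraries were above WT. The log2 fold changes were 0.42 ± 0.05 (edgeR adjusted p = 6.21e-10) and 0.25 ± 0.05 (adjusted p = 3.34e-05). In gun1-101 it lay at 69.4, 66.6 and 66.4 CPM and was not called (0.09 ± 0.05, adjusted p = 0.133).
On spectinomycin EX2 lay at 67.0, 65.7 and 67.3 CPM in WT, at 73.2, 71.8 and 76.4 CPM in nac103-11 and at 75.5, 77.0 and 74.2 CPM in NAC103-OX. Both lines were again above WT, by 0.15 ± 0.05 (edgeR adjusted p = 0.0163) and 0.18 ± 0.05 (adjusted p = 0.00484). With library totals the value in nac103-11 was 0.07 (adjusted p = 0.233). The call there was also lost without WT spectinomycin replicate 2 (0.0605) or nac103-11 spectinomycin replicate 3 (0.0977). EX2 fell in nac103-11 on spectinomycin (-0.20 ± 0.05, edgeR adjusted p = 0.000356), a call that ended with library totals (-0.05, adjusted p = 0.423). This response differed from that of WT by -0.28 ± 0.07 (edgeR adjusted p = 0.00284). In order of means, nac103-11 at 84.9 CPM and WT at 63.4 CPM, both on control medium, stood clear at the ends, and the 6 other groups, from 66.7 to 75.6 CPM, overlapped in turn.
EX1 lay at 55.6, 55.5 and 54.6 CPM in WT on control medium and at 66.8, 65.1 and 59.2 CPM in nac103-11, a difference of 0.20 ± 0.06 (edgeR adjusted p = 0.00268). With library totals in place of TMM this difference was 0.07 and not called (adjusted p = 0.334). No other directional comparison of EX1 passed in edgeR with TMM scaling and all 24 libraries. On spectinomycin, EX1 in nac103-11 was above WT by 0.14 ± 0.05 (edgeR adjusted p = 0.0509), which passed with RLE size factors (0.0214), under DESeq2 (0.0375), and without WT spectinomycin replicate 1 (0.0284) or nac103-11 spectinomycin replicate 1 (0.0177). All group means lay between 55.2 and 63.7 CPM, with every group overlapping its neighbour in order. EX1 and EX2 had r = 0.664 over the 24 libraries. GRF2 (0.928), a 14-3-3 protein gene, DMR6 (0.921) and AGT (0.911) were most like EX2, and ATS1 (0.808), UPL2 (0.777) and HCF244 (0.771) most like EX1. Within groups, the r was 0.117, 0.124 and -0.356 for EX2 and 0.535, 0.223 and 0.200 for EX1, in the same order.
All 8 singlet oxygen-responsive genes fell in WT on spectinomycin (all genes: 20.4% down), with a median log2 change of -1.29, or 7 of 8 without WT control replicate 2. As this list too was chosen with earlier results of these data known, the count is not independent evidence about the pathway. ERF6, an ethylene response factor gene, fell from a mean of 82.7 to 10.7 CPM (-2.95 ± 0.07, edgeR adjusted p = 2.19e-33) and WRKY33, a defence regulator, from 206 to 38.0 CPM (-2.43 ± 0.07, adjusted p = 1.22e-22).
In gun1-101 all 8 were above WT on both media (all genes: 24.7% and 27.7% up), with medians of 2.09 and 3.96, while EX1 and EX2 were not called there. ERF6 lay at 327 CPM on control medium and at 292 CPM on spectinomycin, above WT by 1.98 ± 0.05 (edgeR adjusted p = 3.23e-31) and 4.77 ± 0.07 (adjusted p = 2.43e-42). BAP1, a gene that restrains cell death, was above WT by 2.77 ± 0.07 and 4.38 ± 0.09. On control medium 7 were higher than in WT in nac103-11 (median 0.87; all genes: 23.2% up) and 6 were lower in NAC103-OX (median -1.33; 22.6% down).

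STN7, the thylakoid kinase of state transitions, lay highest in NAC103-OX. On control medium it lay at 25.8, 27.1 and 27.1 CPM in WT and at 36.6, 35.4 and 35.2 CPM in NAC103-OX (0.42 ± 0.07, edgeR adjusted p = 7.4e-07). On spectinomycin it lay at 27.3, 28.9 and 30.5 CPM in WT and at 36.9, 35.5 and 35.3 CPM in NAC103-OX (0.31 ± 0.06, adjusted p = 0.000398). These groups did not overlap on either medium. In nac103-11 on control medium it lay at 31.3, 31.6 and 34.5 CPM, above WT by 0.29 ± 0.07 (edgeR adjusted p = 0.000521), or by 0.15 and not called with library totals (adjusted p = 0.0605).
On spectinomycin nac103-11 overlapped WT at 32.0, 27.5 and 28.7 CPM, and its response minus that of WT was -0.27 ± 0.09 (edgeR adjusted p = 0.0522). It passed without WT control replicate 2 (0.0396), WT spectinomycin replicate 1 (0.0359) or nac103-11 spectinomycin replicate 1 (0.0343). In gun1-101 STN7 lay at 26.4, 29.8 and 26.6 CPM on control medium and at 29.9, 32.0 and 32.7 CPM on spectinomycin, and neither difference from WT passed in edgeR with TMM scaling. The one on spectinomycin, 0.12 ± 0.07, passed with RLE size factors (adjusted p = 0.05). By group means, NAC103-OX on both media stood clear of all others, and the remaining 6 groups overlapped in turn from 32.5 to 26.7 CPM. CEP1 (r = 0.888), SOM (0.854) and TIL (0.844), a lipocalin gene, were most like STN7, with r of 0.443, 0.496 and 0.205 within groups.
All 5 genes of thylakoid phosphorylation and state transitions rose in WT on spectinomycin (all genes: 20.1% up), with a median of 0.89. CAS, a thylakoid calcium sensor, rose from 1.84 to 4.23 CPM (1.19 ± 0.20, edgeR adjusted p = 3.29e-06), and PSAO, a photosystem I subunit, from 8.66 to 16.4 CPM (0.89 ± 0.14, adjusted p = 3.42e-06). STN7 itself was not called in that response (0.12 ± 0.07, adjusted p = 0.15). In NAC103-OX on control medium 3 of the 5 were higher (all genes: 22.8% up), among them the phosphatase gene TAP38 (0.42 ± 0.08, adjusted p = 6.51e-05) and the kinase gene STN8 (0.31 ± 0.07, adjusted p = 0.000365). The leaf and shoot markers, given above for the GLK targets, moved with these genes too.

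SAL1, the phosphatase that removes PAP, showed the widest range of the 8 genes. On control medium it lay at 18.1, 16.3 and 20.5 CPM in WT and at 33.0, 31.8 and 34.9 CPM in gun1-101. On spectinomycin it lay at 16.0, 14.6 and 16.9 CPM in WT and at 34.6, 33.8 and 36.0 CPM in gun1-101. Every gun1-101 library was above every other of the 24. The log2 difference was 0.87 ± 0.08 on control medium (edgeR adjusted p = 1.05e-12) and 1.14 ± 0.08 on spectinomycin (adjusted p = 7.91e-17), past the threshold in every setting tried.
In NAC103-OX SAL1 lay at 13.2, 12.4 and 13.3 CPM on control medium, below WT (-0.49 ± 0.09, edgeR adjusted p = 8.51e-06). The spectinomycin libraries lay at 14.5, 15.7 and 13.5 CPM. The NAC103-OX response differed from that of WT by 0.37 ± 0.12 (edgeR adjusted p = 0.0165), a call lost without WT control replicate 3 (0.0757), WT spectinomycin replicate 2 (0.056) or NAC103-OX spectinomycin replicate 2 (0.0643). In nac103-11 SAL1 fell from 20.6, 18.3 and 17.9 CPM to 15.4, 14.6 and 14.8 CPM (-0.34 ± 0.08, edgeR adjusted p = 0.00101), a call lost with library totals (-0.18, adjusted p = 0.0677).
The fall in WT on spectinomycin was at the threshold (-0.20 ± 0.08, edgeR adjusted p = 0.04998). It was lost without WT control replicate 1 (0.0901) or 3 (0.321), without WT spectinomycin replicate 1 (0.0779) or 2 (0.223), under DESeq2 (0.0511), with no filter on low counts (0.0585), with only these groups fitted (0.103) and with library totals (-0.11, 0.291). The gun1-101 response minus that of WT was 0.27 ± 0.11 (edgeR adjusted p = 0.0722), and 0.35 (0.0139) without WT control replicate 2. By means, the gun1-101 groups stood at 34.8 and 33.2 CPM, NAC103-OX on control medium stood alone at 12.9 CPM, and the 5 between, at 14.6 to 18.9 CPM, overlapped in turn. SAL1 and GUN1 had r = -0.884 over the 24 libraries, 6 of which were gun1-101.
APS3, an ATP sulfurylase gene of sulfate assimilation, was the gene most like SAL1 (r = 0.985), followed by AGP1 (0.975), an arabinogalactan protein gene that is also on the singlet oxygen list, and PGSIP6 (0.970), a glycosyltransferase gene. APS3 lay at 7.69, 5.68 and 8.26 CPM in WT and at 20.4, 21.5 and 21.4 CPM in gun1-101 on control medium. It was above WT in gun1-101 by 1.56 ± 0.10 on control medium and by 2.08 ± 0.11 on spectinomycin (edgeR adjusted p = 7.55e-17 and 4.03e-21), and below WT in NAC103-OX on control medium (-0.87 ± 0.13, adjusted p = 7.15e-07). Within groups, the r of SAL1 was 0.398 with APS3, 0.509 with AGP1 and 0.193 with PGSIP6.

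**Figure D4:**
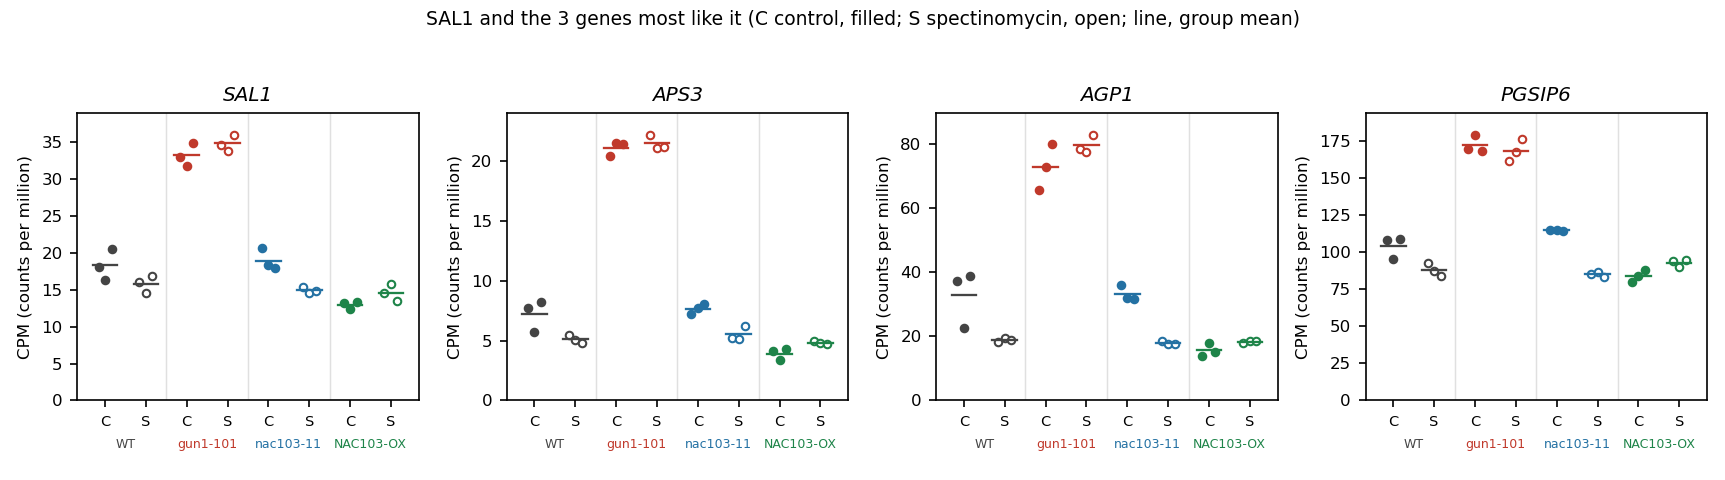
Level in CPM of SAL1 and the 3 genes most like it in each library (points) with the group mean (line), filled on control medium and open on spectinomycin. The 6 gun1-101 libraries lie highest, with SAL1 at 31.8 to 36.0 CPM and APS3 at 20.4 to 22.2 CPM.

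A further 6 genes were relatives of SAL1 and exoribonucleases that PAP inhibits. SAL2, a homologue nearby on chromosome 5, was above WT in gun1-101 on both media (0.91 ± 0.15 and 1.09 ± 0.17, edgeR adjusted p = 4.17e-06 and 8.96e-07) and below WT in NAC103-OX on control medium (-1.28 ± 0.20, adjusted p = 1.06e-06). Reads shared by SAL1 and SAL2 would have been split between them by estimate. AHL, another PAP phosphatase gene, was above WT in gun1-101 on control medium (0.20 ± 0.05, adjusted p = 0.0016), and XRN2, an exoribonuclease gene, below it (-0.15 ± 0.05, adjusted p = 0.0174).
Of 7 PAP-responsive genes 6 were tested, and in gun1-101 5 were above WT on control medium and 5 on spectinomycin (all genes: 24.7% and 27.7% up), with none below and medians of 0.60 and 0.90. STZ, a zinc-finger repressor gene, lay at 676 CPM in gun1-101 against 171 CPM in WT on control medium (1.98 ± 0.07, edgeR adjusted p = 1.37e-20). On spectinomycin the means were 526 against 18.7 CPM (4.82 ± 0.08, adjusted p = 1.87e-28). APX1, cytosolic ascorbate peroxidase, was above WT by 0.64 ± 0.04 and 0.95 ± 0.04. In WT on spectinomycin 1 of the 6 rose and 4 fell (all genes: 20.1% and 20.4%), and in NAC103-OX on control medium 1 was higher and 4 lower (22.8% and 22.6%).

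The remaining retrograde factors were taken as a list of 17, all tested. In WT on spectinomycin 1 rose and 9 fell (all genes: 20.1% and 20.4%), or 2 and 9 without WT control replicate 2. In gun1-101 10 were above and 1 below WT on control medium (24.7% and 15.8%), and 11 above and 3 below on spectinomycin (27.7% and 29.3%). OXI1, a kinase of oxidative signalling, fell in WT from 14.0 to 2.12 CPM (-2.73 ± 0.15, edgeR adjusted p = 1.23e-19) and was above WT in gun1-101 by 1.64 ± 0.09 and 4.33 ± 0.13. NAC102, a NAC factor gene, fell in WT from 248 to 131 CPM (-0.92 ± 0.04, adjusted p = 6.06e-22) and lay at 366 CPM in gun1-101 on spectinomycin (1.48 ± 0.04, adjusted p = 5.24e-30). In NAC103-OX on control medium 4 of the 17 were higher and 7 lower (all genes: 22.8% and 22.6%), with NAC102 at 132 CPM and OXI1 at 2.32 CPM. The WT response and the comparison of NAC103-OX with WT on control medium share the WT control libraries.

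**Figure D5:**
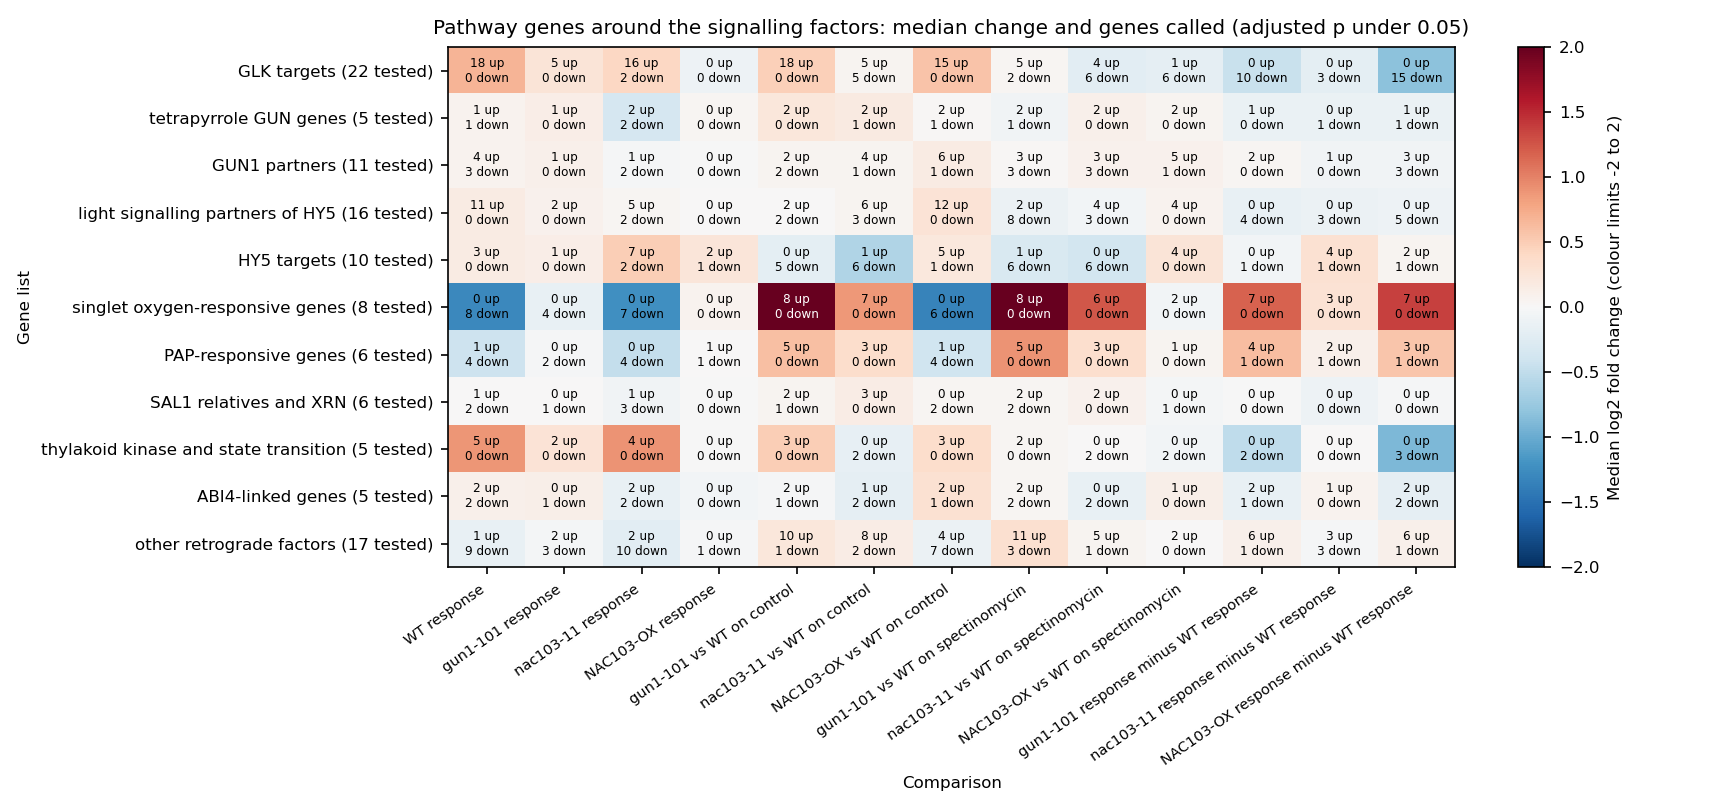
Median log2 fold change (colour) and the number of genes called up and down (text) for the gene lists (rows) in the 13 comparisons (columns). The singlet oxygen-responsive row runs from 8 of 8 down in WT on spectinomycin to 8 of 8 up in gun1-101 against WT on both media. The lists were chosen with earlier results of these data known.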

How the data were processed

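The authors deposited a table of expected counts and TPM per gene and library, made with RSEM 1.3.1 per the submitters' processing notes. The aligner and build are not given in the sources used here. Transcript lengths implied by the files matched RefSeq TAIR10.1. The deposited expected counts, 98.3% of them whole, were rounded, and the deposited TPM values gave levels, marker sums and mean lengths. The 80 columns not needed were not used. Genes under a minimum count of 10 or a total of 15 (edgeR filterByExpr) were left out, 4930 of 24497. TMM scaling and edgeR 4.0.16 (R 4.3.3) quasi-likelihood tests with robust dispersions were fitted to all 8 groups of 3 libraries (16 residual degrees of freedom), with Benjamini-Hochberg adjustment over 19567 genes for each of 13 directional contrasts. CPM is per TMM-scaled library. The p-values set differences between groups against the spread among the libraries within groups. As batch and group cannot be told apart, they do not cover variation between batches. Totals of 13012576 to 17411872 counts set the precision, and limits cover counting error only. DESeq2 1.42.0, other scalings, filters, designs and libraries left out were alternatives. On simulated data, 14, 38, 47 and 47 of 50 genes changed by 1.2, 1.5, 2 and 4-fold were recovered for the WT response, with 5 false calls, and 2, 29, 45 and 47 of 50 for the gun1-101 response minus that of WT, with 2 false calls (19377 genes each). In the simulation only these genes differed between groups, and only in WT on spectinomycin. In the real WT response 40.6% of genes were called, so these rates need not hold there. Named were all members, up to 3 called genes with the smallest p per list and contrast, and the 3 genes most like each tested member. Of the 5 neighbours on either side of GUN1, those that were tested were named. The members and lists were chosen with earlier results of these data known.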

Additional observations from a re-analysis of the deposited data

Results flagged for a closer look

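Responses to spectinomycin that differed from that of WT, by the test of the difference itself (edgeR quasi-likelihood, adjusted over all genes), were taken for a closer look. In NAC103-OX the log2 difference was 0.178 for GUN1 (adjusted p = 0.0313), -0.478 for GLK2 (0.00131) and 0.370 for SAL1 (0.0165). In nac103-11 it was -0.278 for EX2 (adjusted p = 0.00284) and -2.41 for NAC103 itself (0.0113), and the latter call was lost without nac103-11 spectinomycin replicate 2 (0.0999). The NAC103 value rests on few counts, 2, 0 and 2 in the nac103-11 spectinomycin libraries.
Genes beside GUN1 on chromosome 2 differed in this way too. The shares of all genes called were 24.5% for gun1-101, 31.6% for NAC103-OX and 11.8% for nac103-11. In gun1-101 the difference was -0.288 for ADS2, 0.363 for AT2G31370, -0.671 for BBX25 and 0.397 for AT2G31390. In NAC103-OX it was 0.341 for AT2G31370, -0.797 for BBX25 and 0.543 for AT2G31390. In nac103-11 it was -0.397 for AT2G31390 and 0.308 for AT2G31410. The adjusted p of these differences ran from 2.1e-08 for AT2G31390 in NAC103-OX to 0.036 for AT2G31410.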

How the results depend on the processing

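The number of the 8 genes called was recomputed under other settings. Shares of all genes called are given above for the main fit only. The counts below therefore describe dependence on the setting and are not results about these genes as a set. It went from 2 to 1 in the WT response with no filter on low counts, with its own groups fitted alone and with DESeq2, and to 5 with library totals in place of TMM, an alternative chosen after seeing the data. In the gun1-101 response it went from 0 to 3 (GLK2, HY5 and STN7) with only its groups and to 2 with library totals. For nac103-11 against WT on control medium it went from 5 to 3 with only its groups and to 1 with library totals, and on spectinomycin from 2 to 5 with RLE size factors and DESeq2 and to 0 with library totals. For gun1-101 against WT on spectinomycin it was 5 with library totals. For the gun1-101 response minus that of WT it went from 0 to 2 with RLE size factors and to 1 with the replicate block, with only its groups and with DESeq2.
Library totals moved the median log2 change of all genes from 0.00858 to -0.181 for gun1-101 and from -0.00416 to -0.141 for nac103-11 against WT on control medium, from -0.0493 to -0.275 for gun1-101 on spectinomycin, from 0.0334 to 0.125 in the WT response and from 0.0169 to 0.175 in the nac103-11 response. They reversed GUN1 (0.0456) and EX1 (0.148) in the nac103-11 response, EX1 (-0.171) and PTM (-0.0481) in gun1-101 and PTM (-0.0207) in nac103-11 on control medium, and EX2 (-0.177) and PTM (-0.185) in gun1-101 on spectinomycin. The cause was not tested.
With 1 library left out at a time, the count of genes called ran from 1 to 2 in the WT response, from 0 to 1 in the gun1-101 response, from 3 to 4 in the nac103-11 response and from 0 to 0 in the NAC103-OX response. Against WT on control medium, gun1-101 gave 4 to 4, nac103-11 gave 3 to 5 and NAC103-OX gave 4 to 5, and on spectinomycin these were 2 to 3, 0 to 4 and 3 to 3. For the responses minus that of WT it ran from 0 to 1, 1 to 2 and 1 to 3, and for any difference from 8 to 8. The GUN1 log2 fold change, gun1-101 vs WT on control, ran from -0.856 to -0.755, and the GUN1 log2 fold change, gun1-101 vs WT on spectinomycin, from -0.863 to -0.823. Of the single-gene values with a library left out, 708 stayed on the same side of the threshold, 12 became and 36 ceased to be called, and 0 reversed. Under the other settings these numbers were 558, 28 and 19, with 7 reversed.
Libraries with the same replicate number did not deviate together (84 pairs, r from -0.0744 to 0.0771, 0 over 0.1; 11 of 24 libraries correlated best with their own number), so the numbers were not taken as pairs, and the replicate block changed the count of calls only as given above. A GLK1 or ABI4 difference was not detectable at this depth.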
